A study of Bos taurus with 179 samples.

Results

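BUB1, BUB1B, BUB3, CDC20, CENPE and CENPF, 6 genes of the spindle checkpoint and the outer kinetochore, were followed through the growth of the bovine oocyte. They were chosen by their symbols, with earlier results of these data known, and were found through the gene IDs that the study's list of genes expressed in all size groups pairs with these symbols. The IDs are ENSBTAG00000021181 for BUB1, ENSBTAG00000007237 for BUB1B, ENSBTAG00000017913 for BUB3, ENSBTAG00000009819 for CDC20, ENSBTAG00000009035 for CENPE and ENSBTAG00000024449 for CENPF. They are 6 of 21218 gene IDs in the count table and 6 of the 3608 IDs that could be given a symbol, and each stands on 1 line of the table. In the RefSeq annotation, used for names only, BUB1B overlaps TRNAS-AGA and the lncRNA LOC101905672, CENPF overlaps the lncRNA LOC112441860, and the other 4 genes overlap no neighbour. Whether reads of such neighbours were counted separately, and by strand, is not given in the sources used here.

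The kinetochore is the protein structure built on each centromere, and its outer layer holds the microtubules of the spindle. While a kinetochore is unattached, the kinase BUB1, its relative BUBR1 (the product of BUB1B) and the adaptor BUB3 gather there, and CDC20 is held in an inhibitory complex, so that the anaphase promoting complex (APC/C), the ubiquitin ligase that CDC20 activates, cannot start chromosome separation. CENPE is a kinesin motor that brings chromosomes to the spindle equator, and CENPF is a large coiled-coil protein of the outer kinetochore. A growing oocyte is arrested before the first meiotic division and stores mRNA for the divisions that follow, so a transcript measured here belongs to a cell without a spindle.

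Ovaries of Bos taurus came from an abattoir, and oocytes were recovered by 2 routes. Fully grown oocytes were aspirated first from follicles visible at the surface. Growing oocytes were then freed by slicing the ovary in cold medium with cilostamide, an inhibitor of meiotic resumption. Recovered oocytes were washed in this medium, stripped by pipetting, measured and frozen singly. Polyadenylated RNA was made into cDNA with Smart-seq2 primers. The groups were formed by diameter and carry no treatment or genotype. The route of each oocyte is not given, so route and size may go together, and their effects cannot be told apart. Diameters were binned in steps of 10 μm, from < 60 to > 120 μm, and the 8 size groups so made held 21, 25, 23, 24, 21, 18, 19 and 14 oocytes, 165 of 179 deposited, between 48.0 and 135 μm. Libraries were made in 2 replicates, replicate 1 with reads of 150 bp (97 oocytes) and replicate 2 with reads of 75 bp (68 oocytes), and effects of read length and of library batch cannot be told apart. The animal behind an oocyte is not named, and the p-values below measure only the spread between the 16 sums of counts, 1 for each size group and replicate, on which the tests were made, except where single oocytes are named as units.

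An oocyte had between 277126 and 8038061 deposited counts (median 1763520) and a sum between 4467434 and 46545515. The sums did not draw evenly on their oocytes. A single oocyte held 52.9% of the counts of 100–109 μm replicate 1, 1 held 33.1% of those of > 120 μm replicate 1, and 1 of 3 held 46.6% of those of < 60 μm replicate 1. The oocyte markers BMP15, BTG4 and CPEB1 together had 4633 to 9920 CPM (counts scaled to a common effective library size) in the 16 sums. Of 13 markers of somatic follicle and ovary cells, 5 passed the filter on low counts, and the 13 summed to 7.08 to 24.7 CPM below 100 μm and to 3.03 to 15.8 CPM from 100 μm upward. The smooth muscle gene ACTA2, with up to 20.4 CPM, made up much of these sums, and without it they ran from 2.23 to 8.08 CPM below 100 μm and from 2.23 to 5.76 CPM above. Of the granulosa markers, HSD17B1 was at 0 in 0 of 16 sums (0.549 to 5.88 CPM), FSHR in 3 (up to 3.62 CPM) and AMHR2 in 8 (up to 0.255 CPM). The ranges overlapped, and their part in the results below was not tested. Most of these somatic symbols are known here only because the study lists them as lowly expressed in the same oocytes.

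All 6 transcripts were counted in 165 of 165 oocytes, which is no finding, since the choice from a list of genes expressed in all groups favours widely counted genes. After each oocyte was thinned to 250000 counts, 5 transcripts were still counted in every oocyte and CDC20 in 164 (99.4%). The lowest count in any oocyte was 13 for BUB1, 21 for BUB1B, 250 for BUB3, 13 for CDC20, 6 for CENPE and 121 for CENPF. A CPM value is a share of the oocyte's own library. The amount of mRNA per oocyte was not measured, and since transcript length was not used, levels were not compared between genes.

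The genes did not move in a common direction. In oocytes from 100 μm upward (the mean of the 3 largest groups), transcripts of BUB1 and BUB1B were lower than in smaller oocytes, those of CDC20, CENPE and CENPF were higher, and BUB3 did not pass the test. Thus 5 of the 6 genes were called, 3 higher and 2 lower, where 29.3% of the 14087 genes tested were called, 13.7% higher and 15.7% lower. The median log2 difference was 0.27 over the 6 genes and -0.08 over all genes tested. Along the mean diameter of the sums, 4 of 6 were called (CENPE and CENPF higher, BUB1 and BUB1B lower with size), where 33% of all genes were called, 14.8% higher and 18.1% lower. An adjusted p below 0.05 in edgeR's quasi-likelihood test, with the replicate as a block and Benjamini-Hochberg adjustment over all genes, was the rule for a call. The study of these same oocytes also sets sizes above 100 μm apart, so a split there is not independent of the data.

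**Figure D1:**
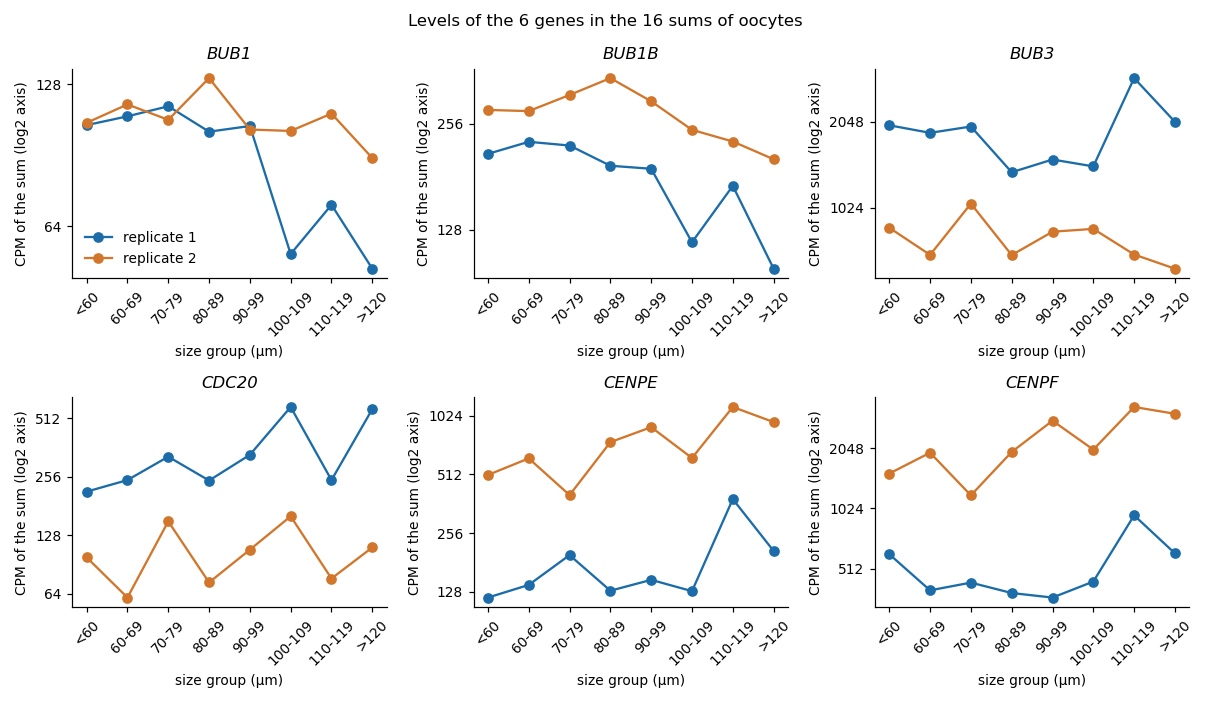
Level of each gene in the 16 sums (CPM of the sum, log2 axis) against the size group (μm), 1 panel per gene, with each point a sum and a line for each replicate. CENPE and CENPF lie higher in replicate 2 in all 8 groups, BUB3 and CDC20 lie lower in replicate 2 in all 8, and BUB1 and BUB1B are lowest in the > 120 μm group of both replicates.

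BUB1, the kinase that marks centromeric chromatin and recruits other checkpoint proteins, was lower from 100 μm upward. In replicate 1 its level was 105, 109, 115, 101 and 104 CPM in the 5 groups below 100 μm and 55.8, 71.0 and 52.0 CPM in the 3 groups above. In replicate 2 it was 106, 116, 108, 131.8 and 103 CPM below and 102, 111 and 89.2 CPM above. The size classes did not overlap in replicate 1 and overlapped in replicate 2, where only the > 120 μm sum stood clearly below the others. From 100 μm upward BUB1 fell by 0.50 on the log2 scale (SE 0.15, 1.42-fold, adjusted p = 0.0192), and by 0.09 per 10 μm of diameter (SE 0.03, adjusted p = 0.0315). Leaving out 1 sum at a time ended the first call in 8 of 16 fits, those without either 60–69 μm sum, 80–89 μm replicate 2 or the replicate 1 sum of 70–79, 90–99, 100–109, 110–119 or > 120 μm, with adjusted p from 0.0532 to 0.124. With all 179 deposited oocytes it was -0.43 (adjusted p = 0.0533), not called. The second call was kept in only 4 of 16, those without < 60 or 70–79 μm replicate 2 or without 80–89 or 90–99 μm replicate 1, and in the other 12 the adjusted p ran from 0.0541 to 0.192. Leaving out both sums of a group ended it for 7 of the 8 groups, with adjusted p from 0.0547 to 0.317, the highest without > 120 μm, and it was kept without 110–119 μm. It was also lost with no filter on low counts (adjusted p = 0.0515) and with each oocyte thinned to 250000 counts (adjusted p = 0.0528), so that it was called in 9 of 36 alternative settings.

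Over single oocytes of both replicates the BUB1 level had a median of 101 CPM in the < 60 μm group (28.8 to 261.5), 119 CPM at 80–89 μm (29.9 to 223) and 60.9 CPM in the > 120 μm group (20.9 to 130.5). The replicates are mixed in unlike shares in these groups. In the same order the medians were 112, 107 and 57.6 CPM in replicate 1 and 97.4, 126 and 80.1 CPM in replicate 2. The low sum of 100–109 μm replicate 1 was not the level of its typical oocyte. The deepest oocyte there had 32.7 CPM of BUB1, the lowest of the 11, whose median was 89.0 CPM. Without that oocyte BUB1 was -0.36 from 100 μm upward (adjusted p = 0.0511) and -0.07 per 10 μm (adjusted p = 0.0587), and neither was called. Among its 8 groups, BUB1 was ordered as 80–89, 60–69, 70–79, < 60, 90–99, 110–119, 100–109 and > 120 μm, from 116 to 68.1 CPM as the geometric mean of both replicates, and no pair of groups was called.

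BUB1B encodes BUBR1, a member of the inhibitory complex that also steadies microtubule attachment. Its level in replicate 1 was 210.2, 227.4, 222, 194 and 191 CPM in the groups below 100 μm and 118, 171 and 99.4 CPM above. In replicate 2 it was 279.99, 277.9, 309, 344.7 and 296.2 CPM below and 245.9, 228 and 202.9 CPM above. In each replicate every sum from 100 μm upward lay below every smaller sum. BUB1B fell by 0.57 on the log2 scale from 100 μm upward (SE 0.14, 1.48-fold, adjusted p = 0.00608) and by 0.10 per 10 μm (SE 0.03, adjusted p = 0.0109). Leaving out > 120 μm replicate 1 took the first call to an adjusted p of 0.0512, and the second was lost without 110–119 μm replicate 2 (0.0553), > 120 μm replicate 1 (0.0922) or > 120 μm replicate 2 (0.0582). Leaving out both sums of a group ended the slope's call for 70–79 μm (adjusted p = 0.0624), 100–109 μm (0.0538) and > 120 μm (0.227), and leaving out the deepest oocyte of each sum gave -0.07 (adjusted p = 0.0520), not called.

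Among its size groups, BUB1B had levels of 261.8, 258.9, 251, 243 and 238 CPM at 70–79, 80–89, 60–69, < 60 and 90–99 μm, then 197, 170.4 and 142 CPM at 110–119, 100–109 and > 120 μm. The 5 smaller groups thus came before the 3 larger ones, and no pair of groups was called. Over single oocytes the median went from 251 CPM in the < 60 μm group (101 to 444) to 123 CPM in the > 120 μm group (77.9 to 266.4), and the ranges overlapped widely.

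BUB3, the WD-repeat adaptor that carries BUB1 and BUBR1 to the kinetochore, was not called in any comparison of the 16 sums. Replicate 1 held 1991, 1874, 1972, 1362, 1509.8, 1428, 2917 and 2048 CPM from the smallest to the largest group. Replicate 2 held 869, 698, 1057, 697, 842, 861, 700.1 and 624 CPM. The highest sum of replicate 1, at 110–119 μm, had its counterpart in replicate 2 at 700.1 CPM, below the median of that replicate, and no order with size was shared. The log2 difference from 100 μm upward was 0.06 (SE 0.17, adjusted p = 0.832) and the slope -0.01 per 10 μm (SE 0.03, adjusted p = 0.908). With single oocytes as units, which are not independent, BUB3 was called at 110–119 against 100–109 μm (0.75, adjusted p = 0.00187, and 0.94, adjusted p = 2.08e-04, on ComBat-seq counts) and from 100 μm upward (0.26, adjusted p = 0.0257, and 0.32, adjusted p = 0.00960). The slope turned its sign under many settings, and a missed threshold does not show that BUB3 is constant. The widest single-oocyte range of BUB3 over both replicates was in the 110–119 μm group, 332 to 6434 CPM with a median of 1908 CPM. It spans 2 ranges that did not overlap, 1705 to 6434 CPM (median 2578) in replicate 1 and 332 to 1369 CPM (median 679) in replicate 2.

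CDC20, the activator of the APC/C and the target of the checkpoint complex, had its highest geometric means over both replicates at 100–109 and > 120 μm, with a lower level between. In replicate 1 the sums held 215, 247, 325, 245 and 333 CPM below 100 μm, then 587, 246.5 and 572 CPM. In replicate 2 they held 98.6, 61.2, 151.1, 73.2 and 108 CPM, then 160.5, 76.7 and 111 CPM. In replicate 2 the 70–79 μm sum thus lay above that of > 120 μm. In both replicates the 110–119 μm sum lay below the sums on either side of it and within the range of the smaller oocytes. From 100 μm upward CDC20 rose by 0.47 on the log2 scale (SE 0.15, 1.39-fold, adjusted p = 0.0270), whereas its slope of 0.10 per 10 μm (SE 0.05, adjusted p = 0.0958) was not called. From 100–109 to 110–119 μm it fell by 1.16 (SE 0.31, 2.24-fold, adjusted p = 0.0449), in a comparison where 2 of the 6 were called, 1 higher and 1 lower, beside 3.88% of all genes (1.89% higher, 1.99% lower).

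These CDC20 values rested in part on 2 oocytes. The deepest oocyte of 100–109 μm replicate 1 held 72.6% of the CDC20 counts of its sum, with 965 CPM where the other 10 ranged from 241 to 396 CPM, and the deepest of > 120 μm replicate 1 held 56.8%. Leaving out 1 sum kept the drop called in 7 of 16 fits, with values from -1.03 (without 100–109 μm replicate 1) to -1.21, and the fits that ended it were those without either sum of 60–69, 80–89, 90–99 or 110–119 μm or without 100–109 μm replicate 1. Without the former oocyte, CDC20 at 110–119 against 100–109 μm was -0.73 (adjusted p = 0.178), and from 100 μm upward 0.40 (adjusted p = 0.0677). Without the > 120 μm replicate 1 sum, the latter was 0.36 (adjusted p = 0.131). It was also not called with all 179 deposited oocytes (0.44, adjusted p = 0.0545) or at 250000 counts per oocyte (0.34, adjusted p = 0.0535). The drop was not called in those fits either (adjusted p = 0.135 and 0.118), nor without the deepest oocyte of each sum (-0.97, adjusted p = 0.0583) or on ComBat-seq counts of single oocytes (-0.61, adjusted p = 0.0935). The slope, not called with all sums, was called without 70–79 μm replicate 2 (adjusted p = 0.0367), 110–119 μm replicate 1 (0.0336) or 110–119 μm replicate 2 (0.0307). The median over oocytes, which no single oocyte sets, was 338 CPM at 100–109 μm, 257.3 CPM at 110–119 μm and 417 CPM above 120 μm in replicate 1. In replicate 2 it was 184, 94.96 and 133 CPM. The 110–119 μm median was the lowest of the 3 in both replicates.

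Of the 28 pairs of size groups, 4 were called for CDC20. It was higher at 100–109 than at < 60 μm by 1.05 (adjusted p = 0.0271, 14.5% of all genes called) and than at 60–69 μm by 1.31 (adjusted p = 0.0165, 7.12% called). It was also higher above 120 μm than at 60–69 μm by 1.07 (adjusted p = 0.0288, 11.9% called), and the fourth pair was the drop already described. The geometric means ran from 307 CPM at 100–109 μm through 252, 222, 189, 145.6, 137 and 134 CPM (> 120, 70–79, 90–99, < 60, 110–119 and 80–89 μm) to 123 CPM at 60–69 μm, and no neighbours in this order were called.

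CENPE, the kinetochore kinesin, rose with oocyte size. In replicate 1 its sums were 119, 139, 197, 129 and 147.1 CPM below 100 μm, then 129, 382 and 207 CPM. In replicate 2 they were 509, 619, 401, 749.8 and 895 CPM, then 621, 1136 and 951 CPM. The 110–119 μm sum was the highest in each replicate, the > 120 μm sum was the next, and the 100–109 μm sum lay within the smaller oocytes. CENPE rose by 0.15 on the log2 scale per 10 μm (SE 0.04, adjusted p = 0.00775), a call kept in 16 of 16 fits without 1 sum, and was higher from 100 μm upward by 0.54 (SE 0.17, 1.45-fold, adjusted p = 0.0228). The second call was lost without 80–89 μm replicate 1 (adjusted p = 0.0565) or 110–119 μm replicate 1 (adjusted p = 0.0506).

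Between successive groups CENPE was called only at 110–119 against 100–109 μm, a log2 difference of 1.24 (SE 0.34, 2.36-fold, adjusted p = 0.0483). It was called in 8 of 16 fits without 1 sum, with the lowest value, 0.91, without 110–119 μm replicate 1, and the fits that ended the call, with adjusted p from 0.0529 to 0.466, were those without either sum of 60–69, 80–89 or 90–99 μm or without replicate 1 of 100–109 or 110–119 μm. Without the deepest oocyte of 100–109 μm replicate 1 it was 1.42 and remained called, and it was not called with all 179 deposited oocytes (1.03, adjusted p = 0.156) or with no replicate block (1.02, adjusted p = 0.876). CENPE at 110–119 μm was also above < 60 μm by 1.44 (adjusted p = 0.00726, 16.5% of all genes called), above 60–69 μm by 1.19 (adjusted p = 0.0342, 8.38% called) and above 70–79 μm by 1.16 (adjusted p = 0.0379, 9.18% called). Against the nearer groups of 80–89 μm (1.08, adjusted p = 0.0876, 2.84% called) and 90–99 μm (0.86, adjusted p = 0.261, 0.291% called) it was not called. Its geometric means were ordered 659, 444, 362.8, 311, 293, 282.8, 281 and 246.3 CPM at 110–119, > 120, 90–99, 80–89, 60–69, 100–109, 70–79 and < 60 μm. The difference between the 2 highest groups was 0.59 (adjusted p = 0.504), so they could not be separated.

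CENPF, the coiled-coil outer kinetochore protein that also binds microtubules, rose with oocyte size as well, and its course was not tested against that of CENPE. Replicate 1 held 605, 399, 436, 387.2 and 367 CPM below 100 μm, then 442, 946 and 611 CPM. Replicate 2 held 1529.8, 1945, 1191, 1962 and 2810.0 CPM, then 2015, 3289.9 and 3043 CPM. As for CENPE, the highest sums were those of 110–119 and > 120 μm in both replicates, although the < 60 μm sum of replicate 1, from 3 oocytes, came close to the latter. CENPF rose by 0.11 per 10 μm (SE 0.04, adjusted p = 0.0331) and was higher from 100 μm upward by 0.54 (SE 0.17, 1.46-fold, adjusted p = 0.0238). The slope was called in 16 of 16 fits without 1 sum, and the second call was lost without 80–89 μm replicate 1 (adjusted p = 0.0532). Leaving out both sums of a group ended the slope's call for 60–69 μm (adjusted p = 0.0740), 110–119 μm (0.0945) and > 120 μm (0.0649), and leaving out the deepest oocyte of each sum gave 0.11 (adjusted p = 0.0683), not called.

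At 110–119 against 100–109 μm, CENPF gave a log2 difference of 0.91 (SE 0.34, adjusted p = 0.109), which was not called in edgeR's test and was called in DESeq2 (0.95, adjusted p = 0.0386). Only 1 of its 28 pairs was called, 110–119 against 70–79 μm (1.26, adjusted p = 0.0287, 9.18% of all genes called). Its geometric means ran from 1764 CPM at 110–119 μm, 1364 CPM above 120 μm and 1016 CPM at 90–99 μm, through 962, 943, 881 and 871 CPM at < 60, 100–109, 60–69 and 80–89 μm, to 721 CPM at 70–79 μm. The group medians over oocytes do not follow this order for CENPE and CENPF. Replicate 2, with the higher level, supplied 18 of the 21 oocytes of the < 60 μm group and fewer of the others. The < 60 μm medians were 411.95 CPM for CENPE and 1206 CPM for CENPF, against 288 and 855 CPM above 120 μm.

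**Figure D2:**
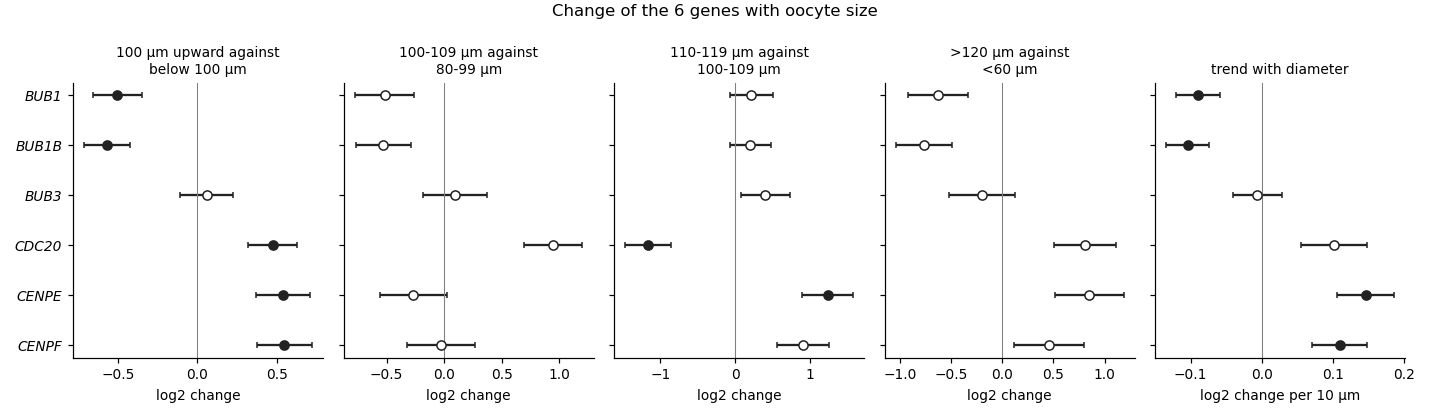
Log2 difference of each gene (points, with bars of 1 SE) in 4 comparisons of size groups and, in the last panel, per 10 μm of diameter, with filled points for an adjusted p below 0.05. BUB1 and BUB1B lie below 0 and CENPE and CENPF above 0 from 100 μm upward and along the diameter, while CDC20 lies above 0 in every panel but that of 110–119 against 100–109 μm.

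The ratio of the counts of 2 genes in a sum needs no scaling to library size, although the deepest oocytes weigh most in it. The pairs of genes were chosen after their values were seen, so the ratios describe the courses above and are no further evidence of them. The ratio of CENPE to BUB1B counts, a gene that rose against a gene that fell, was 0.567, 0.609, 0.888, 0.665, 0.771, 1.09, 2.24 and 2.08 from the smallest to the largest group in replicate 1. In replicate 2 it was 1.82, 2.23, 1.30, 2.18, 3.02, 2.53, 4.99 and 4.69. Without its deepest oocyte the 100–109 μm replicate 1 sum had a ratio of 0.699 in place of 1.09. The ratio of CDC20 to BUB1B counts was 1.02, 1.08, 1.47, 1.26, 1.74, 4.97, 1.45 and 5.76 in replicate 1 and 0.352, 0.220, 0.489, 0.212, 0.364, 0.653, 0.337 and 0.546 in replicate 2. Here 100–109 and > 120 μm were highest, with 110–119 μm among the smaller oocytes. In replicate 1 both peaks rested in part on 1 oocyte each. Without the deepest oocyte of its sum the ratio was 2.23 in place of 4.97 at 100–109 μm and 3.64 in place of 5.76 above 120 μm, and in replicate 2 it was 0.203 in place of 0.364 at 90–99 μm. The ratio of BUB1B to BUB1 counts lay between 1.83 and 2.89 over all 16 sums, and between 1.68 and 3.4 without the deepest oocyte of each. Such ratios compare courses and not amounts, since longer transcripts give more reads.

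The remaining comparisons between size groups called few genes or none of the 6. Over any difference among the 8 groups, 2 of 6 were called, CDC20 (adjusted p = 0.0174) and CENPE (adjusted p = 0.0414), where 14.9% of all genes were called, and DESeq2 called 3 beside 29.1% of all genes. At the ends of growth, > 120 against < 60 μm, 0 of 6 were called in edgeR's test although 19.2% of all genes were (9.36% higher, 9.8% lower). There 4 of the 6 had an unadjusted p under 0.05, as had 4723 of the 14087 genes, and DESeq2 called 3, BUB1B, CDC20 and CENPE, beside 24.3% of all genes. The log2 differences were -0.62 for BUB1, -0.77 for BUB1B, -0.20 for BUB3, 0.81 for CDC20, 0.85 for CENPE and 0.46 for CENPF, with adjusted p from 0.0572 to 0.715. The < 60 μm group had 3 oocytes in replicate 1 and the > 120 μm group 4 in replicate 2.

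Between the successive groups from < 60 to 100–109 μm, edgeR's test called 0 of 6 in each comparison. At 60–69 against < 60 μm, 80–99 against 70–79 μm and 90–99 against 80–89 μm, where 0.0142%, 0% and 0% of all genes were called, none of the 6 reached an unadjusted p of 0.05, and 0 were called in DESeq2 beside 0.0497%, 0.121% and 0% of all genes. At 70–79 against < 70 μm, with 0.135% of all genes called, CDC20 alone had an unadjusted p under 0.05 (log2 difference 0.74, adjusted p = 0.479), beside 1063 of the 14087 genes, and DESeq2 called 0 of 6 and 0.589% of all genes. At 100–109 against 80–99 μm, with 0.497% called (0.433% higher, 0.0639% lower), 2 of 6 and 2263 of the 14087 genes had an unadjusted p under 0.05. CDC20 had the larger difference (0.95, SE 0.25, adjusted p = 0.0867), called in DESeq2 beside 3.59% of all genes. At > 120 against 110–119 μm, with 0.0071% of all genes called, edgeR's test again called 0 of 6. CDC20 alone had an unadjusted p under 0.05 (0.92, adjusted p = 0.427), beside 1564 of the 14087 genes, and DESeq2 called 0 of 6 and 0.0142% of all genes.

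The share of all genes called differed widely between pairs of groups. Pairs without a call among the 6 included 80–89 against < 60 μm (0.724% of all genes called), 90–99 against < 60 μm (2.48%), 100–109 against 70–79 μm (0.838%) and > 120 against 70–79 μm (6.96%), as well as > 120 against < 60 μm, the pair with the highest share.

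The 2 replicates differed in level, in opposite directions for different genes. Replicate 2 was higher than replicate 1 by 2.06 on the log2 scale for CENPE (4.17-fold) and by 2.08 for CENPF (4.23-fold), in 8 of 8 size groups for each. It was lower for CDC20 (log2 difference -1.69, 3.23-fold) and for BUB3 (-1.23, 2.34-fold), in 8 of 8 groups for each. BUB1B was higher in replicate 2 by 0.64 in 8 of 8 groups and BUB1 by 0.33 in 6 of 8. Among all genes tested these replicate differences stood at the percentiles 96.6 (CENPF), 96.5 (CENPE), 74.1 (BUB1B), 65.5 (BUB1), 16.8 (BUB3) and 7.5 (CDC20). The replicate term removes these differences from the tests above, and without it 0 of 6 were called from 100 μm upward and along the diameter, where 5.12% and 15.6% of all genes were called.

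Slopes were therefore also fitted within each replicate, where 17.5% (replicate 1) and 18.2% (replicate 2) of all genes tested were called. In replicate 1 alone, CDC20 rose by 0.19 per 10 μm (adjusted p = 0.0452), and the slopes of BUB1 (-0.13, adjusted p = 0.103), BUB1B (-0.11, adjusted p = 0.139), BUB3 (0.06, adjusted p = 0.491), CENPE (0.17, adjusted p = 0.0900) and CENPF (0.10, adjusted p = 0.265) were not called. In replicate 2 alone, CENPE rose by 0.15 (adjusted p = 0.0190) and CENPF by 0.15 (adjusted p = 0.0125), and BUB1 (-0.03, adjusted p = 0.590), BUB1B (-0.07, adjusted p = 0.163), BUB3 (-0.05, adjusted p = 0.361) and CDC20 (0.04, adjusted p = 0.705) were not called. BUB1, BUB1B, CDC20, CENPE and CENPF had the same sign in both replicates and BUB3 had opposite signs. The difference between the 2 slopes was called for 0 of 6 genes and for 0% of all genes in edgeR's test. For BUB1 it was 0.12 per 10 μm (unadjusted p = 0.0421, adjusted p = 0.440), the only one of the 6 with an unadjusted p under 0.05, and 1527 of 14087 genes were under that value.

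**Figure D3:**
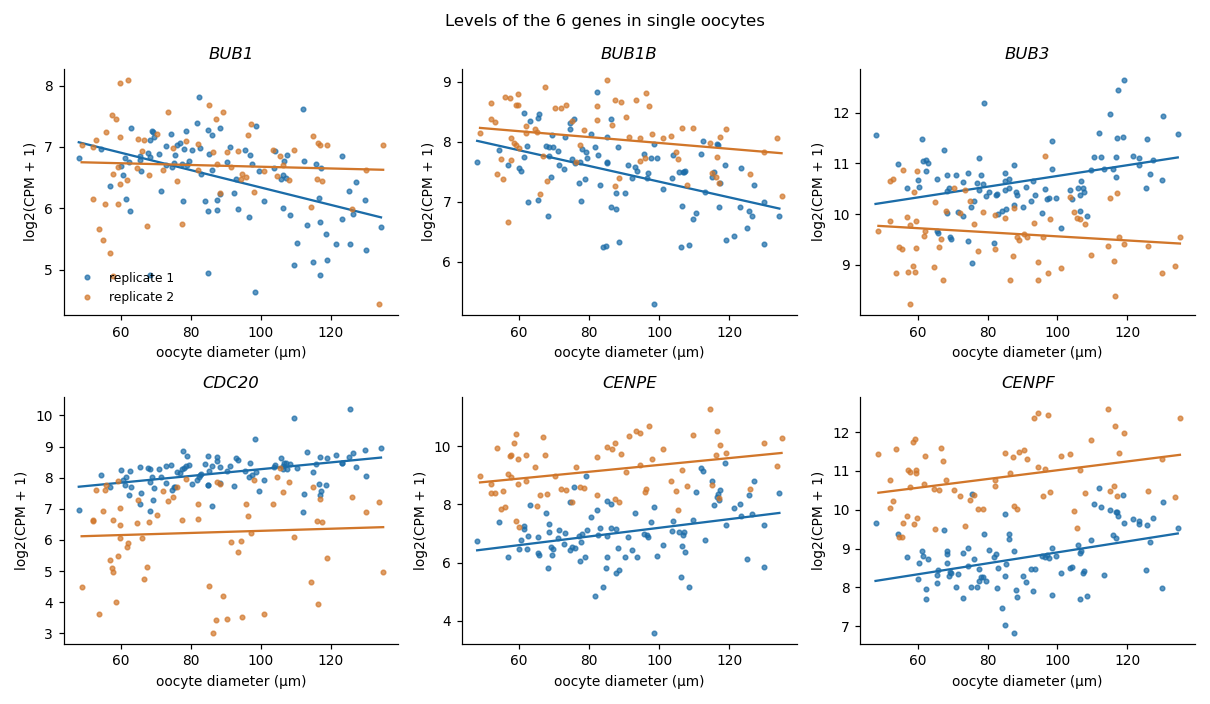
Level of each gene in single oocytes, log2(CPM + 1), against oocyte diameter (μm), with 165 points per panel coloured by replicate and a least-squares line for each replicate. CENPE and CENPF are higher and CDC20 lower in replicate 2, with overlap, and the BUB3 lines run in opposite directions.

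Across single oocytes the relation with diameter was loose. Over 165 oocytes with the replicate means removed, the Pearson correlation of log2(CPM + 1) with diameter was -0.275 for BUB1, -0.360 for BUB1B, 0.132 for BUB3, 0.166 for CDC20, 0.312 for CENPE and 0.364 for CENPF, and the Spearman correlations were -0.274, -0.370, 0.0997, 0.235, 0.304 and 0.326. These points share 2 library batches and differ in depth, so the values are a description. Within replicate 1 (97 oocytes) r was -0.451, -0.452, 0.354, 0.426, 0.315 and 0.395 in the same order of genes. Within replicate 2 (68 oocytes) it was -0.051, -0.229, -0.154, 0.058, 0.313 and 0.328. The values of BUB1 and CDC20 were closer to 0 in replicate 2, and those of BUB3 had opposite signs. No difference between these correlations was tested, and that between the slopes was called for none of the 6 genes in edgeR's test, with BUB1 alone under an unadjusted p of 0.05.

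The same oocytes were high for CENPE and CENPF, with r = 0.807 between these genes over 165 oocytes (0.777 in replicate 1 and 0.861 in replicate 2). BUB1 and BUB1B had r = 0.584 (0.731 and 0.335). CDC20 ran opposite to the 2 CENP genes in replicate 2, with r = -0.696 to CENPF and -0.674 to CENPE, and hardly at all in replicate 1, with -0.119 and -0.058. BUB3 and CENPE had r = 0.503 in replicate 1, -0.641 in replicate 2 and 0.066 over all oocytes. BUB3 and CDC20 had r = 0.403 (0.230 and 0.568).

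**Figure D4:**
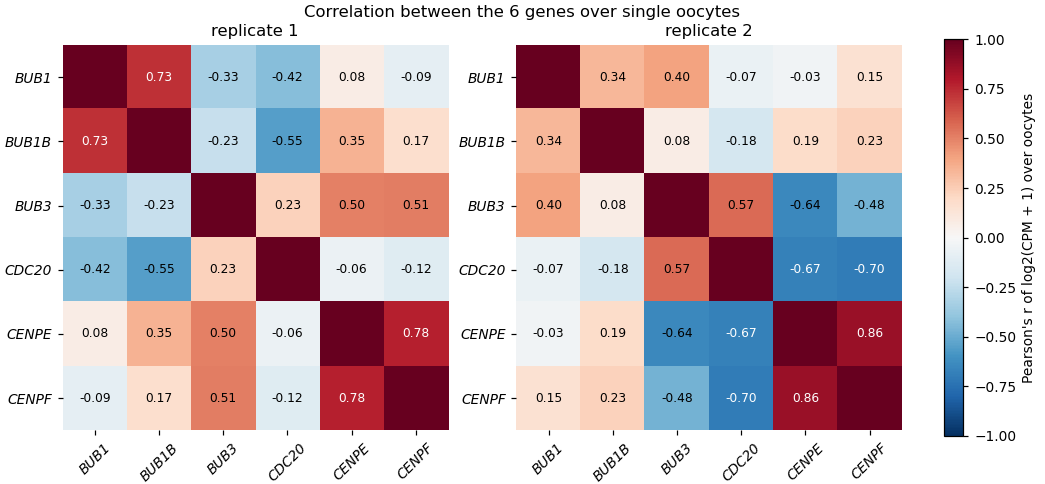
Pearson correlation of log2(CPM + 1) between each pair of the 6 genes over the oocytes of replicate 1 (left, 97 oocytes) and of replicate 2 (right, 68 oocytes), on a colour scale from -1 to 1 with the value printed in each cell. CENPE and CENPF stand together in both panels, and BUB3 with CENPE or CENPF changes sign between them.

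Among tested genes with a symbol, those most alike over oocytes were found for each gene. For CENPE these were BRCA2, the DNA repair gene, and ATRX, the chromatin remodeller, each with r = 0.849 over 165 oocytes, and for CENPF again BRCA2 (0.884) and ATRX (0.851). For CDC20 they were ASF1B, a histone chaperone (0.830), and COASY, an enzyme of coenzyme A synthesis (0.783). For BUB3 they were CDC123 (0.781) and ALG11, a mannosyltransferase (0.733), for BUB1 CALU and CANX, a calcium-binding protein and a chaperone of the endoplasmic reticulum (0.729 and 0.721), and for BUB1B the closest was again CANX (0.730). Only 3608 IDs carry a symbol, so closer genes without one may exist, as was the case for BUB3, whose closest tested ID had r = 0.835, and for CENPE, whose closest had r = 0.873. Among all tested IDs BRCA2 and ATRX ranked 5 and 6 for CENPE, ATRX ranked 4 for CENPF, COASY 22 for CDC20, CDC123 and ALG11 4 and 10 for BUB3 and CANX 3 for BUB1, and the other genes named ranked 1.

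Genes around the checkpoint were counted in 4 lists, to be read beside the shares of all genes called, 14.8% higher and 18.1% lower along the diameter, 13.7% and 15.7% from 100 μm upward and 1.89% and 1.99% at 110–119 against 100–109 μm. Only genes that could be given a symbol entered the lists, and all their symbols begin with A, B or C. The counts therefore need not cover whole complexes or pathways. Of 12 APC/C subunits, the ligase that CDC20 activates, 2 rose and 2 fell along the diameter, with a median slope of -0.01 beside -0.02 over all genes. ANAPC11, the RING subunit, rose by 0.11 per 10 μm (adjusted p = 0.00711) and ANAPC13 by 0.10 (adjusted p = 0.0408), while CDC23 fell by 0.16 (adjusted p = 0.00837) and CDC16 by 0.11 (adjusted p = 0.0147), both scaffold subunits. From 100 μm upward 3 of 12 were higher and 2 lower, and these counts, like those along the diameter, lie near the shares of all genes. At 110–119 against 100–109 μm, 2 of 12 were higher, CDC26 and CDC27, named after their values were seen.

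Of 6 Aurora kinase and chromosomal passenger genes, which correct faulty attachments and build the spindle, 5 rose along the diameter and 0 fell, with a median slope of 0.10. AURKC, the germ cell Aurora kinase, had the largest slope of the list (0.21, adjusted p = 2.52e-05), followed by BORA, a cofactor of Aurora A (0.13, adjusted p = 0.00902), AURKB (0.10, adjusted p = 0.00889) and AURKA (0.10, adjusted p = 0.0179). BIRC5, the survivin gene, was the member not called (0.02, adjusted p = 0.571), named after its value was seen. The same counts, 5 higher and 0 lower, were found from 100 μm upward. At 110–119 against 100–109 μm 0 of 6 were called.

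Of 13 genes of the inner kinetochore, which joins the outer layer to centromeric DNA, 6 rose and 2 fell along the diameter, with a median slope of 0.06. CENPL rose by 0.26 (adjusted p = 6.84e-05), CENPM by 0.18 (adjusted p = 5.66e-04) and CENPT by 0.15 (adjusted p = 0.00469), and CENPX fell by 0.15 (adjusted p = 0.00706). From 100 μm upward 5 were higher and 2 lower, and at 110–119 against 100–109 μm 2 were higher. Of 11 genes of the maturation promoting factor, the kinase that drives entry into the meiotic divisions, and its regulators, 6 rose and 2 fell, with a median slope of 0.12. CDC25B, the activating phosphatase, rose by 0.25 (adjusted p = 5.18e-05), CKS1B by 0.18 (adjusted p = 4.47e-05) and CCNB2 by 0.18 (adjusted p = 1.70e-04), and the cyclin CCNB3 fell by 0.20 (adjusted p = 9.77e-05). From 100 μm upward the counts were again 6 and 2, and at 110–119 against 100–109 μm 0 were called. The lists were described by counts only, and no difference between a list and other genes was tested.

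**Figure D5:**
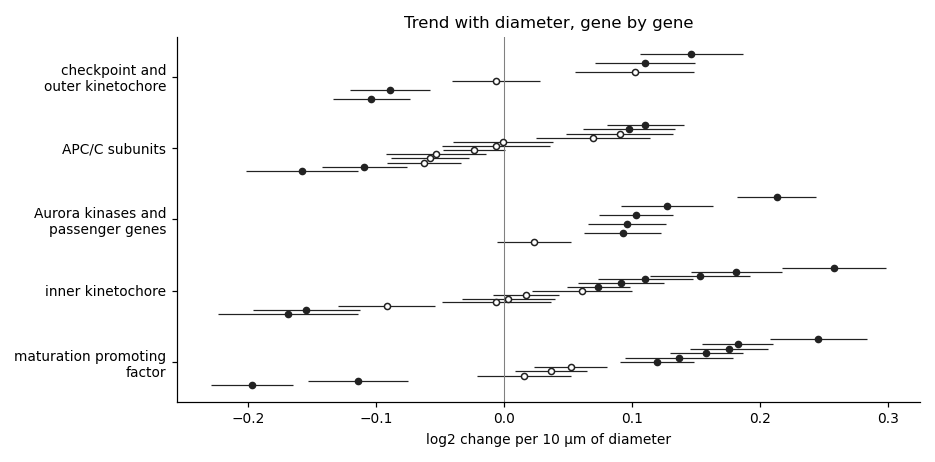
Slope with diameter (log2 per 10 μm) of the 6 genes and of every gene of the 4 lists, 1 point per gene with bars of 1 SE, filled where the adjusted p was below 0.05. The 6 Aurora and passenger genes all lie above 0, while the other lists, like the 6 checkpoint and kinetochore genes, lie on both sides of 0.

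For the identity of the cells, the oocyte markers BMP15 and BTG4 rose along the diameter by 0.15 (adjusted p = 0.00899) and 0.13 (adjusted p = 0.0188), and CPEB1 had a slope of 0.01 (adjusted p = 0.926). Of the 5 somatic markers tested, 0 rose and 1 fell, the granulosa gene HSD17B1 (-0.36, adjusted p = 1.48e-04). Along the diameter HSD17B1 thus fell as BUB1 and BUB1B did, and BMP15 and BTG4 rose as CENPE and CENPF did. The oocyte markers did not match in every comparison. From 100 μm upward 0 of 3 were called, beside 29.3% of all genes, although 3 of 3 had a positive log2 difference (median 0.39). At 110–119 against 100–109 μm 0 of 3 were called, beside 3.88% of all genes, and 1 of 3 had a positive difference (median -0.32). The part of these markers in the results above was not tested.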

How the data were processed

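Counts per gene were deposited by the authors for 179 single oocytes, 1 column each, as raw counts with no normalization. Reads had been trimmed with Trim Galore 0.6.6 (submitters' processing notes), aligned with HISAT2 to ARS-UCD1.2 (bosTau 9) and counted in SeqMonk. The treatment of multiply aligned reads, strand and overlapping genes is not given in the sources used here. The 165 oocytes that the study kept were used, and the counts of an ID on several lines were summed. The copies of the study's gene lists used here were shortened and gave a symbol to 3608 IDs.

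Counts were summed by size group and replicate (16 sums). Low counts were filtered with filterByExpr in edgeR 4.0.16 (counts of 10, totals of 15), leaving 14087 genes. After TMM normalization, glmQLFit and glmQLFTest were applied to 8 groups, or to the mean diameter in units of 10 μm, with the replicate as a block. Benjamini-Hochberg adjustment ran over all genes and a call needed an adjusted p below 0.05. Standard errors were taken as the absolute log2 difference over the root of F. The replicate number marks a library batch, and its sums deviated from the group means together (r between 0.398 and 0.694 over 28 pairs of sums, median 0.579), so it pairs them. CPM used TMM effective library sizes. Correlations used log2(CPM + 1).

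DESeq2 1.42.0, sva 3.50.0 (ComBat-seq), RLE normalization, no filter, single oocytes as units, 250000 counts per oocyte, all 179 oocytes, omission of the deepest 100–109 μm oocyte and omission of each sum were the alternatives. Omission of a whole size group from the slope, omission of the deepest oocyte of each sum and the test between slopes were chosen after seeing the data. The 6 genes and the lists were chosen with earlier results of these data known. Named list genes are the 4 with the smallest adjusted p along the diameter, besides those marked as named after their values were seen. Named alike genes are the 2 with the highest r for each of the 6 genes, of which 1 for BUB1B is not reported here. Fits were tested on simulated data. R 4.3.3 was used. No sequence is shown, and no genome of the authors' build was used here.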

Additional observations from a re-analysis of the deposited data

Results flagged for a closer look

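Outside the analysed set stood 14 deposited oocytes, with total counts from 10 to 4933709, that enter no comparison above. More than 3 counts, the limit that a count of 0 allows, were found for BUB1 in 9 of them, BUB1B in 10, BUB3 in 10, CDC20 in 9, CENPE in 10 and CENPF in 11. The highest count was 304 for BUB1, 656 for BUB1B, 12674 for BUB3, 486 for CDC20, 3998 for CENPE and 4706 for CENPF. The study removed samples with too few reads, too few expressed genes or too large a share of mitochondrial reads. Which rule removed each of these oocytes was not tested here.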

How the results depend on the processing

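The 11 comparisons of sizes were recomputed under the alternatives, except that the fits in 1 replicate alone and without a whole group were run for the slope only, and the 28 pairs of groups were not recomputed. RLE normalization kept the number of the 6 genes called within 1.5 times the reported number in all 11 comparisons, and where a setting changed a result the cause was not tested, except that settings with fewer sums or oocytes have less data. The calls needed the pairing by replicate. With no replicate block, 0 of 6 genes were called from 100 μm upward, 0 along the diameter, 0 at 110–119 against 100–109 μm and 0 over any difference among the 8 groups, beside 5.12%, 15.6%, 0% and 0% of all genes. The depth limits the sums that rest on few oocytes, and 1 deep oocyte moved several calls of CDC20 and BUB1.

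From 100 μm upward 3 were called with all deposited oocytes (25.2% of all genes) and 3 without the deepest 100–109 μm oocyte (28.4%), and 2 to 5 without 1 sum (20.7% to 30%). Along the diameter 1 was called without the deepest oocyte of each sum (34.2%), 1 in replicate 1 alone (17.5%), 2 in replicate 2 alone (18.2%), 2 without the 60–69 μm group (27%), 2 without the 100–109 μm group (31.7%) and 1 without the > 120 μm group (22.6%), and 2 to 5 without 1 sum (26.5% to 32.8%). At 110–119 against 100–109 μm 4 were called with single oocytes as units (37%), 1 with each oocyte at 250000 counts (7.28%), 0 with all deposited oocytes (0.0142%) and 1 without the deepest 100–109 μm oocyte (3.39%), and 0 to 2 without 1 sum (0% to 9.94%). At 100–109 against 80–99 μm DESeq2 called 1 (3.59%), the fit with no filter 1 (2.02%), and the fits without 1 sum 0 to 1 (0% to 1.99%). At > 120 against < 60 μm 3 were called by DESeq2 (24.3%), 5 with single oocytes (40.5%), 4 on ComBat-seq counts (41.4%), 2 without the deepest 100–109 μm oocyte (21.1%), 2 without the deepest of each sum (24.9%) and 0 to 2 without 1 sum (7.4% to 19%). Over any difference 6 were called with single oocytes (65.4%), 6 on ComBat-seq counts (64.2%), 0 with all deposited oocytes (11.1%), 1 without the deepest 100–109 μm oocyte (16%) and 1 to 3 without 1 sum (10.6% to 18.9%). Single oocytes of an unnamed animal are not independent, so the higher counts are not stronger results.

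Among the log2 differences recomputed for each gene (from 100 μm upward, 110–119 against 100–109 μm, > 120 against < 60 μm and the slope, and 100–109 against 80–99 μm for CDC20), direction turned for BUB1 at 110–119 against 100–109 μm and for BUB3, none of them called as reported. BUB1 gave -0.11 with single oocytes, -0.038 on ComBat-seq counts, -0.053 at 250000 counts, -0.022 without the deepest 100–109 μm oocyte, -0.077 without the deepest of each sum, and -0.039 to 0.60 without 1 sum. BUB3 at > 120 against < 60 μm gave 0.046 with single oocytes and 0.18 on ComBat-seq counts, and -0.48 to 0.18 without 1 sum. Without 1 sum BUB3 ran from -0.15 to 0.89 at 110–119 against 100–109 μm, and from -0.076 to 0.29 from 100 μm upward. The BUB3 slope per 10 μm was 0.0051 with no replicate block, 0.0031 with RLE, 0.0032 in DESeq2, 0.0045 with no filter, 0.040 with single oocytes, 0.055 on ComBat-seq counts (called there, adjusted p = 0.0273), 0.017 at 250000 counts, 0.0055 with all deposited oocytes, 0.0033 without the deepest 100–109 μm oocyte, 0.015 without the deepest of each sum and 0.058 in replicate 1 alone. Without a whole group it was 0.022 (< 60 μm), 0.021 (70–79 μm), 0.0066 (80–89 μm), 0.0056 (90–99 μm), 0.014 (100–109 μm) and 0.019 (> 120 μm), and without 1 sum -0.023 to 0.026.

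The Pearson correlation of BUB1 with diameter was -0.275 over 165 oocytes and turned to 0.0158 over all 179, and that of BUB1B was -0.360 and turned to 0.0396. The values over 179 also used counts scaled by the plain total, and there the Spearman correlations stayed negative, -0.213 for BUB1 and -0.305 for BUB1B.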
